A study of Mus musculus with 6 samples.

Results

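The 38 genes described here encode the enzymes of glycolysis and glycogen breakdown, the carriers of glucose and lactate, and a set of transcripts known to respond to low oxygen. They were picked by gene symbol, not by any measured value, from a table of 24067 genes, and all 38 were found and passed the filter on low counts. By role they comprised 6 muscle isoforms, 5 genes that muscle expresses strongly but other cells use too, 10 isoforms of wide or other-tissue expression, 5 enzymes with a single wide form, 2 lactate carriers and 10 hypoxia genes.

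The RNA came from whole tongues with tumours of C57BL/6 mice about 34 weeks old, 3 labelled HuR knockout (KO) and 3 labelled wild type (WT). HuR, encoded by Elavl1, binds AU-rich stretches of mRNAs and often stabilises them. Both groups had been given 4-nitroquinoline 1-oxide (4NQO), a carcinogen that induces oral tumours, over 16 weeks, and tumours then had 12 weeks to grow. The sources used here give neither the allele nor a Cre driver, nor whether each library is a separate animal, so the p-values reflect variation among these 6 libraries, which may in part be technical.

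The level of Elavl1 did not separate the groups. It was 65.0, 59.3 and 78.4 CPM (counts scaled to library size) in the tongues labelled KO and 61.7, 55.8 and 48.0 CPM in those labelled WT, so the groups are called by their labels throughout. Xist, transcribed from the inactive X chromosome of females, was high in KO replicates 2 and 3 (1271 and 1104 CPM), against 1.24 CPM in KO replicate 1 and 0.625 to 2.5 CPM in the WT libraries, so sex and label are partly confounded. Levels of cell type markers also differed by label. Summed over 15 skeletal muscle markers, the level was 41878, 44627 and 59606 CPM in the libraries labelled KO, against 73981.5, 107092 and 136905 CPM in those labelled WT. Summed over 12 keratinocyte markers it was 55378, 57609.7 and 46553 CPM in the KO libraries, against 33863, 30809 and 20149 CPM in the WT libraries. No muscle marker and no keratinocyte marker was at 0. In whole tissue, fewer muscle fibres and less RNA per fibre cannot be told apart. Library totals ran from 34754246 to 51520707 counts in the KO group and from 29543352 to 51280006 in the WT group.

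Glycolysis splits glucose into pyruvate, and several of its steps are run by a different gene in different tissues. Muscle fibres use their own phosphofructokinase, phosphoglycerate mutase, enolase, glycogen phosphorylase and insulin-regulated glucose carrier, while epithelial, stromal and liver cells mainly use other members of each family. When oxygen is low, the transcription factor HIF-1, whose oxygen-regulated subunit is the product of Hif1a, binds a short core sequence near its target genes and raises many glycolytic genes together with regulators of blood vessels, pH and mitophagy.

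In the tongues labelled KO, 3 of the 6 muscle isoforms fell, and 7 of the 10 wide or other-tissue isoforms had higher values without passing the test, leaving aside Eno1, whose reads are uncertain. Of the 38 genes, 2 rose and 6 fell in the tongues labelled KO by edgeR's quasi-likelihood test at a Benjamini-Hochberg adjusted p of 0.05 over 15903 genes. Over all genes tested, 12.2% were called, 4.81% higher and 7.43% lower, against 5.26% and 15.8% of the 38. The genes that rose were Adm and Ndrg1, both hypoxia genes. Those that fell were the muscle isoforms Pygm, Slc2a4 and Pfkfb1, the heart-type lactate dehydrogenase Ldhb, the glycolytic enzyme Gapdh and the mitophagy gene Bnip3. At an unadjusted p of 0.05, 10 were higher and 15 lower, and 2897 and 3233 of all genes. The median log2 fold change (KO over WT) of the 38 was -0.38, with 11 positive and 27 negative, against a median of 0.02 over all genes tested.

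The KO and WT libraries did not overlap for 9 genes higher and 14 lower in the tongues labelled KO, 23.7% and 36.8% of the 38, against 22.0% and 22.1% of all genes tested. Calls over the whole table, the 38 included, rested on every library but WT replicate 1. Without KO replicate 1, 2 or 3, or without WT replicate 2, none of the 38 was called by the same test. Over all genes, the same fits called 4, 0, 49 and 0 higher and 6, 0, 3 and 1 lower. At an unadjusted p of 0.05 between 5 and 10 of the 38 were higher and between 11 and 17 lower in them. Without WT replicate 3 only Pfkfb1 of the 38 was called, against 294 genes higher and 437 lower over all genes. Without WT replicate 1, 11 of the 38 were called higher and 17 lower, against 2906 and 2938 of all genes. With DESeq2 8 rose and 15 fell, against 12.1% and 15.9% (28.1% in all) of the 15493 genes that it tested. With limma-voom 2 rose and 10 fell, against 6.14% and 7.99% (14.1% in all) of 15903.

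**Figure D1:**
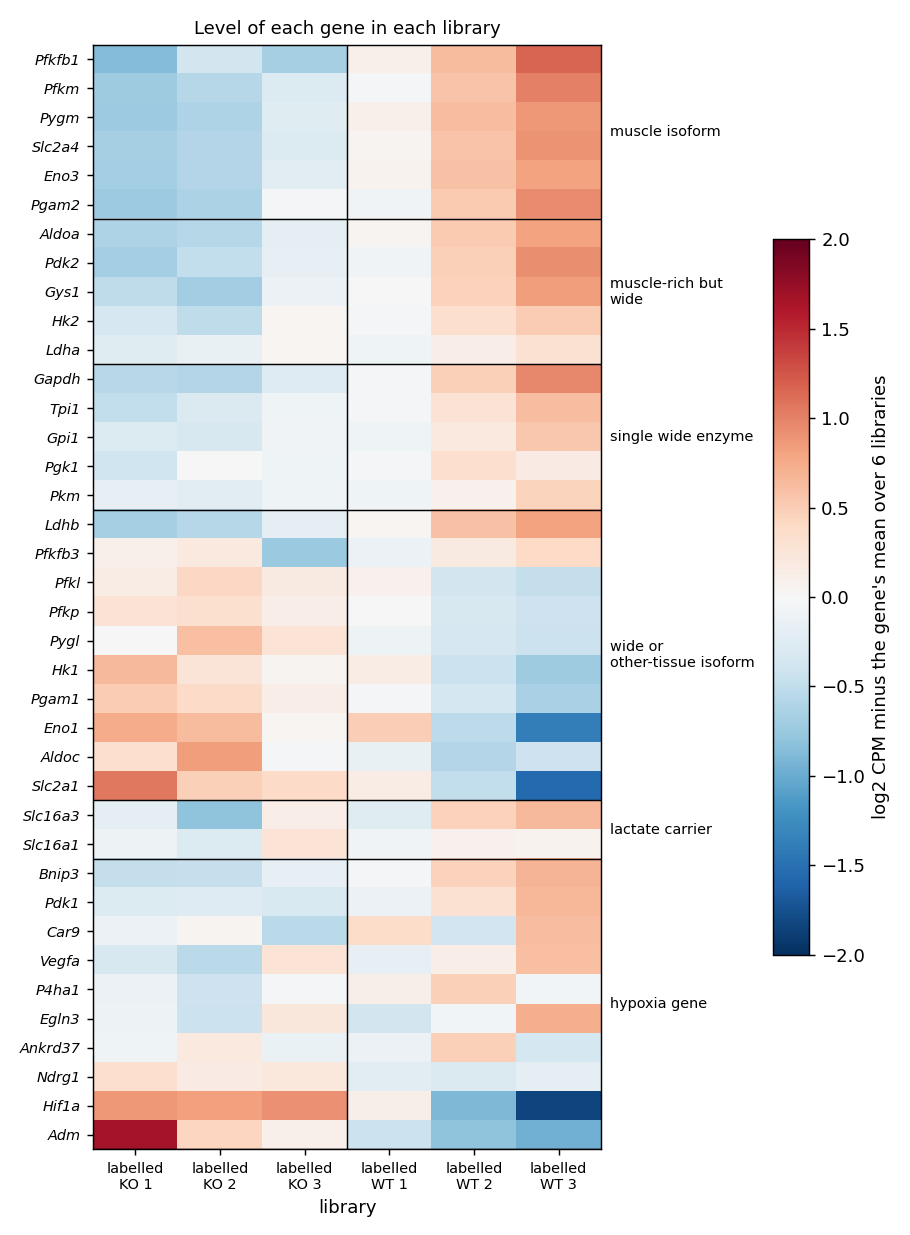
Level of each of the 38 genes (rows, grouped by role) in each library (columns, labelled KO then labelled WT), as log2 CPM minus the gene's mean over the 6 libraries. The 6 muscle isoforms are below their mean in the KO columns and highest in WT replicate 3, while Hif1a, Slc2a1 and Adm run the other way.

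All 6 muscle isoforms had negative fold changes, with a median of -1.06 on the log2 scale. Of them, 3 fell past the threshold, against 7.43% of all genes tested. Their groups did not overlap for 5 of the 6, with Pgam2 the exception, against 22.1% of all genes tested that were apart and lower. Beside them, the 15 skeletal muscle markers had a median of -0.93, with 4 of 15 called lower and none higher.

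Pygm, glycogen phosphorylase of muscle, releases glucose 1-phosphate from glycogen and lies on chromosome 19 at 6384399 to 6398459 of GRCm38. It had 1083, 1169.5 and 1516 CPM in the tongues labelled KO, against 1910.5, 2746 and 3258 CPM in those labelled WT. Every KO library was below every WT library, and the log2 fold change was -1.07 ± 0.27 (SE, edgeR adjusted p = 0.0452). Slc2a4, which encodes GLUT4, the carrier that insulin moves to the surface of muscle and fat cells, lies on chromosome 11 at 69942539 to 69948188. It had 271, 287 and 355 CPM in the tongues labelled KO, against 449, 643 and 805 CPM in those labelled WT. The groups were again apart, with a log2 fold change of -1.05 ± 0.24 (SE, edgeR adjusted p = 0.0381). Pfkfb1, a bifunctional enzyme known from liver and muscle that sets the level of an activator of phosphofructokinase, is the lowest of the 6 and lies on chromosome X at 150588229 to 150643878. It had 11.2, 15.8 and 12.9 CPM in the tongues labelled KO, against 21.8, 31.5 and 46.0 CPM in those labelled WT. Its fall was the largest of the muscle isoforms, at -1.31 ± 0.27 (SE, edgeR adjusted p = 0.0344).

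The other 3 muscle isoforms missed the threshold narrowly. Pfkm, the muscle phosphofructokinase that commits sugar to glycolysis, had 1297, 1434 and 1757 CPM in the tongues labelled KO, against 2106, 3183 and 4309 CPM in those labelled WT. Its groups were apart and its log2 fold change was -1.10 ± 0.31 (SE, edgeR adjusted p = 0.0524). Eno3, the muscle enolase, had 1493, 1589 and 2049 CPM in the tongues labelled KO, against 2513, 3569 and 4173 CPM in those labelled WT. The groups were apart here too, with a log2 fold change of -1.0 ± 0.27 (SE, edgeR adjusted p = 0.0509). Pgam2, the muscle phosphoglycerate mutase, had 316, 336 and 510.1 CPM in the tongues labelled KO, against 496, 746 and 1001 CPM in those labelled WT. KO replicate 3 stood just above WT replicate 1, and the log2 fold change was -0.95 ± 0.30 (SE, edgeR adjusted p = 0.0669). All 3 were called lower by DESeq2 on the same counts, a method that called 15.9% of the 15493 genes it tested lower.

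Genes that muscle expresses strongly but other cells also use had lower values in the tongues labelled KO, and none of the 5 passed the test. Aldoa, the aldolase of muscle and most other cells, averaged 2453 ± 417 CPM in KO and 4686 ± 1177 CPM in WT (SD, n = 3 each, as for all CPM means here), with a log2 fold change of -0.93 ± 0.28 (SE, edgeR adjusted p = 0.0612) and groups apart. Gys1, which builds glycogen in muscle and elsewhere, averaged 453 ± 95.1 CPM in KO and 841 ± 236 CPM in WT, with a log2 fold change of -0.89 ± 0.26 (SE, edgeR adjusted p = 0.0567). Pdk2, a kinase that switches off pyruvate dehydrogenase, averaged 262 ± 49.5 CPM in KO and 499 ± 167 CPM in WT, and its log2 fold change was -0.93 ± 0.27 (SE, edgeR adjusted p = 0.0555). Hk2, the hexokinase of insulin-responsive tissue, had overlapping groups, at 419.9 ± 82.4 CPM in KO and 609.8 ± 111 CPM in WT and a log2 fold change of -0.54 ± 0.22 (SE, edgeR adjusted p = 0.109). Ldha, the lactate dehydrogenase subunit that favours lactate, differed least of the 5. It had 614, 656 and 746 CPM in the tongues labelled KO, against 688, 799 and 894 CPM in those labelled WT, with overlapping groups and a log2 fold change of -0.24 ± 0.19 (SE, edgeR adjusted p = 0.356).

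Among the 5 enzymes with a single wide form, only Gapdh fell. Gapdh, which oxidises glyceraldehyde 3-phosphate, lies on chromosome 6 at 125161715 to 125166467. It had 86.6, 84.7 and 107 CPM in the tongues labelled KO, against 125, 177 and 249 CPM in those labelled WT. The groups were apart, and the log2 fold change was -0.99 ± 0.24 (SE, edgeR adjusted p = 0.0433). The other 4 had values between -0.59 and -0.31 on the log2 scale. Tpi1, triosephosphate isomerase, averaged 558 ± 78.4 CPM in KO and 837 ± 189 CPM in WT, Gpi1, phosphoglucose isomerase, 469 ± 42.0 CPM in KO and 643 ± 142 CPM in WT, and their adjusted p-values were 0.0986 and 0.138 by edgeR. Pkm, the pyruvate kinase of most tissues, averaged 1344 ± 55.8 CPM in KO and 1671 ± 316 CPM in WT, with a log2 fold change of -0.31 ± 0.21 (SE, edgeR adjusted p = 0.301). Pgk1, phosphoglycerate kinase, averaged 21.0 ± 2.96 CPM in KO and 26.3 ± 3.17 CPM in WT, with an edgeR adjusted p of 0.160.

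Some of these counts are uncertain because the transcripts share sequence with copies elsewhere in the genome. Of the 50-base windows along the longest protein-coding transcript of Gapdh, 82.5% also occur in transcripts of another annotated gene, as do 72.2% for Eno1, 68.0% for Pgk1, 62.4% for Bnip3 and 41.5% for Pgam1. For Pfkm, Pgam2, Eno3, Slc2a4, Pfkfb1 and Adm the share was 0%. How reads that match several places were treated is unknown from the sources used here. Gapdh is among the most abundant mRNAs of muscle, yet per kilobase of exon it stood far below Aldoa here (62.1 in KO and 123 in WT CPM per kilobase against 956 in KO and 1827 in WT CPM per kilobase), and the part of shared reads in this was not tested.

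Most of the wide and other-tissue isoforms had the opposite sign. Of 10, 8 had positive fold changes, the uncertain Eno1 included, with a median of 0.61 on the log2 scale. None was called higher by edgeR, and 5 were called higher by DESeq2, against 12.1% of the genes that it tested. Over the same 10 genes the groups did not overlap for 6 that were higher in the tongues labelled KO and for 1 that was lower. Of all genes tested, 22.0% were apart and higher and 22.1% apart and lower. Beside them, the 12 keratinocyte markers had a median of 1.17 with none called. With the keratinocyte marker mean as a term the median of the 10 was 0.064, and with the muscle marker mean 0.062. No gene of the whole table was called in either fit. The keratinocyte marker mean was at least 11.30 in the KO libraries and at most 10.79 in the WT libraries. That term therefore cannot be told apart from the label. Slc2a1, which encodes GLUT1, the glucose carrier of epithelia, red cells and many tumours, had 377, 254 and 237 CPM in the tongues labelled KO, against 202, 129 and 61.7 CPM in those labelled WT. Its 3 KO libraries lay above all WT libraries, WT replicate 3 was the lowest, and the log2 fold change was 1.14 ± 0.39 (SE, edgeR adjusted p = 0.0798). Relative to the keratinocyte markers of each library, Slc2a1 differed by -0.069 with overlapping groups. On that scale Hk1 (-0.69), Pfkl (-0.85), Pfkp (-0.85), Pgam1 (-0.66) and Pygl (-0.76) were lower in KO with groups apart. Aldoc (-0.58) was lower with overlapping groups. The mean of these markers was higher in the KO libraries, so subtracting it lowered the difference of every gene by the same amount. Pfkl, the liver type of phosphofructokinase, averaged 111 ± 10.9 CPM in KO and 79.4 ± 17.2 CPM in WT, with groups apart and a log2 fold change of 0.48 ± 0.17 (SE, edgeR adjusted p = 0.0839). Pfkp, the platelet type, averaged 118 ± 8.18 CPM in KO and 84.6 ± 12.8 CPM in WT, also with groups apart, and its log2 fold change was 0.48 ± 0.14 (SE, edgeR adjusted p = 0.0555). Hk1, the hexokinase of most cells, averaged 199 ± 42.9 CPM in KO and 129 ± 40.2 CPM in WT, with overlapping groups and a log2 fold change of 0.63 ± 0.25 (SE, edgeR adjusted p = 0.104).

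The scarcer isoforms had higher means in the tongues labelled KO as well. Aldoc, an aldolase best known from brain, averaged 6.90 ± 2.11 CPM in KO and 3.96 ± 0.624 CPM in WT. Pygl, the liver glycogen phosphorylase, averaged 10.6 ± 2.30 CPM in KO and 7.04 ± 0.883 CPM in WT. Pgam1, the wide phosphoglycerate mutase, averaged 8.49 ± 1.09 CPM in KO and 5.32 ± 1.16 CPM in WT. All 3 had groups apart, with log2 fold changes of 0.80, 0.60 and 0.67 and edgeR adjusted p-values of 0.0694, 0.0756 and 0.0640. Eno1, the wide enolase, had only 55, 42 and 39 counts in the KO libraries, against 35, 24 and 7 counts in the WT libraries. The groups overlapped, and Eno1b, the gene that shares the most of its windows, held 288, 277 and 323 counts in the KO libraries and 383, 1 and 1 in the WT libraries. The assignment of enolase reads in these libraries is therefore uncertain, and no direction is read from Eno1.

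A pair of the 10 went the other way. Ldhb, the lactate dehydrogenase subunit of heart and slow, oxidative muscle fibres, lies on chromosome 6 at 142490249 to 142507957. It had 186, 198 and 258 CPM in the tongues labelled KO, against 304, 442 and 516 CPM in those labelled WT. The groups were apart, and the log2 fold change was -0.97 ± 0.23 (SE, edgeR adjusted p = 0.0409). Pfkfb3, the inducible bifunctional enzyme of proliferating and hypoxic cells, had 48.4, 51.7 and 26.9 CPM in the tongues labelled KO, against 41.4, 50.8 and 59.2 CPM in those labelled WT. Its groups overlapped, KO replicate 3 was the lowest of all, and the log2 fold change was -0.25 ± 0.25 (SE, edgeR adjusted p = 0.470).

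Ratios of 2 isoforms within a library do not depend on how the library is scaled. For 10 pairs the log2 ratio of counts, with 0.5 added to each, was compared between the 3 KO and 3 WT libraries. The ratio of the muscle form to its counterpart was lower in the tongues labelled KO in 8 pairs and higher for Ldha over Ldhb. The ratio of Eno3 over Eno1, with a difference of -1.89, is given as a value only because of the uncertain reads of Eno1. The groups were apart in 8 of 10 pairs, all but Eno3 over Eno1 and Hk2 over Hk1. The exact 2-sided permutation test gave p = 0.1 for those 8, the smallest it can give for 3 against 3, or 0.125 adjusted over the 10 pairs, so none could pass 0.05.

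Slc2a4 over Slc2a1 moved most. The log2 ratio was -0.48, 0.18 and 0.58 in the tongues labelled KO, against 1.15, 2.32 and 3.70 in those labelled WT, a difference of -2.30. Counts of the muscle carrier were thus about level with those of GLUT1 in the KO libraries and higher in every WT library. Pfkm over Pfkl averaged 3.75 ± 0.27 in KO and 5.29 ± 0.81 in WT (SD, n = 3 each), and Pfkm over Pfkp differed by nearly as much, -1.54 in both cases. Pygm over Pygl averaged 6.89 ± 0.36 in KO and 8.52 ± 0.57 in WT, a difference of -1.63. Pgam2 over Pgam1 differed by -1.61, Aldoa over Aldoc by -1.68, Hk2 over Hk1 by -1.19 and Pfkfb1 over Pfkfb3 by -0.96. Ldha over Ldhb was 1.72, 1.73 and 1.53 in the tongues labelled KO, against 1.18, 0.86 and 0.79 in those labelled WT, a difference of 0.72. Of that pair, Ldhb was called lower and Ldha had overlapping groups.

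**Figure D2:**
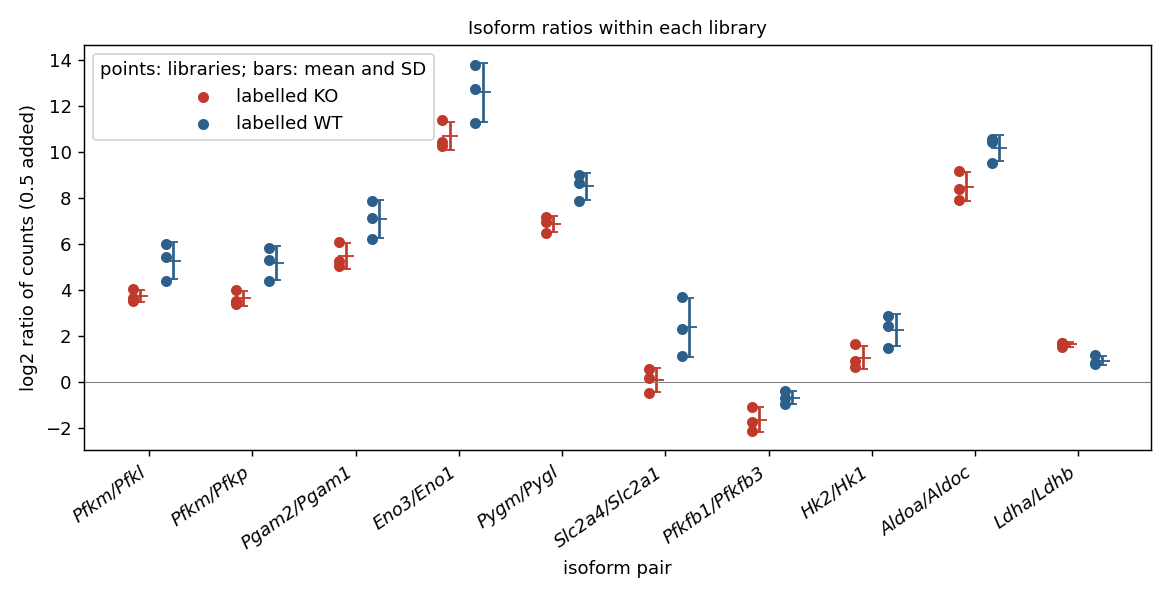
Log2 ratio of counts of 2 isoforms in each library (points, labelled KO left of labelled WT in each pair), with the mean and SD of each group beside them. Ratios of muscle to wide isoforms have differences from -2.30 to -0.96, with Eno3 over Eno1 resting on uncertain Eno1 reads, and Ldha over Ldhb is higher by 0.72.

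Per kilobase of exon, the muscle isoform still made up nearly all of most steps in both groups. Pfkm held 88.5, 88.6 and 91.6% of the phosphofructokinase level in the tongues labelled KO, against 93.4, 96.5 and 97.6% in those labelled WT. Pygm held 99.3 ± 0.192% in KO and 99.8 ± 0.101% in WT of glycogen phosphorylase (SD, n = 3 each), and Pgam2 held 98.9 ± 0.376% in KO and 99.6 ± 0.215% in WT of phosphoglycerate mutase. For glucose entry the balance was closer. Slc2a4 held 45.5, 56.7 and 63.5% of the summed level of Slc2a4 and Slc2a1 in the tongues labelled KO, against 72.1, 85.3 and 93.8% in those labelled WT. The highest level per kilobase among the 38 was that of Eno3, at 1092 in KO and 2183 in WT CPM per kilobase, followed by Aldoa at 956 in KO and 1827 in WT CPM per kilobase.

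The phosphoglycerate mutases show how far the promoters of such a pair differ. The sequences below run from 250 bases before to 50 bases after the RefSeq start on GRCm38.p6, with each CG pair in capitals. Pgam2 is at chr11:5803747-5804046 on the minus strand and Pgam1 at chr19:41911621-41911920 on the plus strand.
Pgam2: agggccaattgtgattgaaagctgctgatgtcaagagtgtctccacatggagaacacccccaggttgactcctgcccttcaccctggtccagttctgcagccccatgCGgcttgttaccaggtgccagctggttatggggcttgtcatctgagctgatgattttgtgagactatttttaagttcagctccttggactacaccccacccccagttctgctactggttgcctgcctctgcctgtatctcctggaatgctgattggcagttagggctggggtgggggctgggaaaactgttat
Pgam1: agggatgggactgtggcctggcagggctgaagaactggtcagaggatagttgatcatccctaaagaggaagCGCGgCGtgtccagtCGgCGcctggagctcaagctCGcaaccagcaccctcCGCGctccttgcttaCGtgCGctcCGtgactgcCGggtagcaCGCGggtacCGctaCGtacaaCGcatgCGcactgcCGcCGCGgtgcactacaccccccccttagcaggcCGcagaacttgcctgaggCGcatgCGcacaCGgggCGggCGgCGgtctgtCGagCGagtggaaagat
The muscle gene has 1 CG pair in this window and the wide gene 30. Over the 5 muscle isoforms with an entry the median was 4, with 1 in Pgam2, 3 in Eno3, 4 in Pygm, 12 in Pfkm and 20 in Pfkfb1. The 10 wide isoforms had a median of 20.5, and 27025 RefSeq genes a median of 8. CG-rich starts are a known trait of widely expressed genes, and the counts describe the sequence only.

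The muscle isoforms moved with the muscle markers of each library. Relative to the mean log2 CPM of the 15 muscle markers in the same library, their difference between KO and WT lay between -0.33 (Pfkfb1) and 0.0025 (Pgam2), with a median of -0.11 and overlapping groups for all 6. Pygm, for example, stood -0.05 ± 0.12 from that mean in KO and 0.08 ± 0.10 in WT (SD, n = 3 each). Ldhb and Gapdh stayed close to the markers as well, with differences of -0.03 and -0.01. The wide isoforms did not, with a median difference of 1.54 relative to the muscle markers. Of all 38 genes, 20 had a negative fold change in the fit with group only and a positive difference relative to these markers, the called gene Bnip3 among them. The marker mean was lower in the KO libraries, so subtracting it raised the difference of every gene by the same amount. A gene with equal levels in both groups would also be positive, so these sign changes are not particular to the 38. Ldha differed by 0.69, Slc2a1 by 2.20 and Hif1a by 2.66 on that log2 scale, with groups apart for each. Relative to the keratinocyte markers, which shift every gene downward, Ldha differed by -1.58 with groups apart. On that scale Slc2a1 differed by -0.069 and Hif1a by 0.40, both with overlapping groups.

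**Figure D3:**
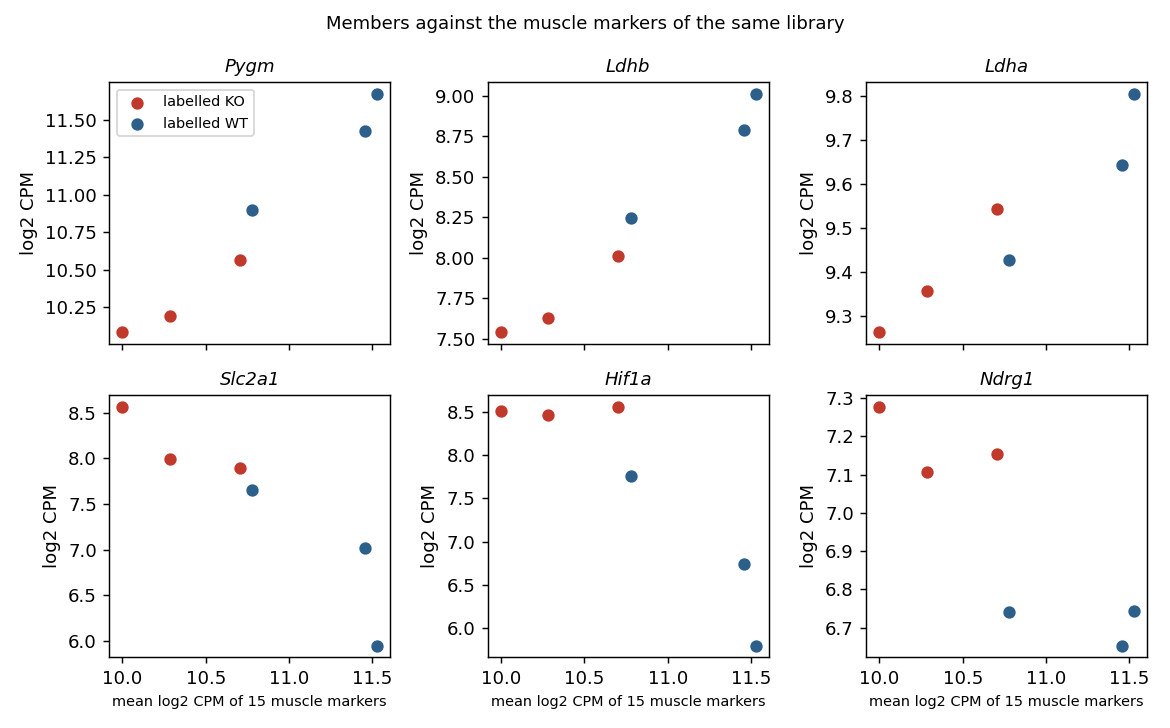
Log2 CPM of 6 genes (vertical axes) against the mean log2 CPM of 15 skeletal muscle markers in the same library (horizontal axes), 1 point per library, labelled KO and labelled WT in separate colours. Pygm and Ldhb climb along the marker level through both groups, Slc2a1 and Hif1a run downward, and Ndrg1 differs by label with little slope within a group.

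With that marker mean as a term in the edgeR fit, no gene of 15903 was called, while 240 were higher and 256 lower at an unadjusted p of 0.05, and none of the 38 was among them. The marker mean was at most 10.70 in the KO libraries and at least 10.78 in the WT libraries. Label and muscle marker level therefore cannot be told apart in these 6 libraries. In that fit the median over the 6 muscle isoforms was -0.26 and over all 38 genes 0.02. Pygm had a log2 fold change of -0.28 ± 0.24 in it, Slc2a1 0.02 ± 0.43, Hif1a 0.63 ± 0.54 and Ndrg1 0.38 ± 0.18. With the keratinocyte marker mean as the term, no gene was called either, with 370 higher and 555 lower at an unadjusted p of 0.05. Among them were Ndrg1 and Egln3, both higher, though Egln3 had -0.26 with group only. Hif1a had 0.22 ± 0.25 in that fit. The keratinocyte marker mean was at least 11.30 in the KO libraries and at most 10.79 in the WT libraries. Label and keratinocyte marker level therefore cannot be told apart either.

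**Figure D4:**
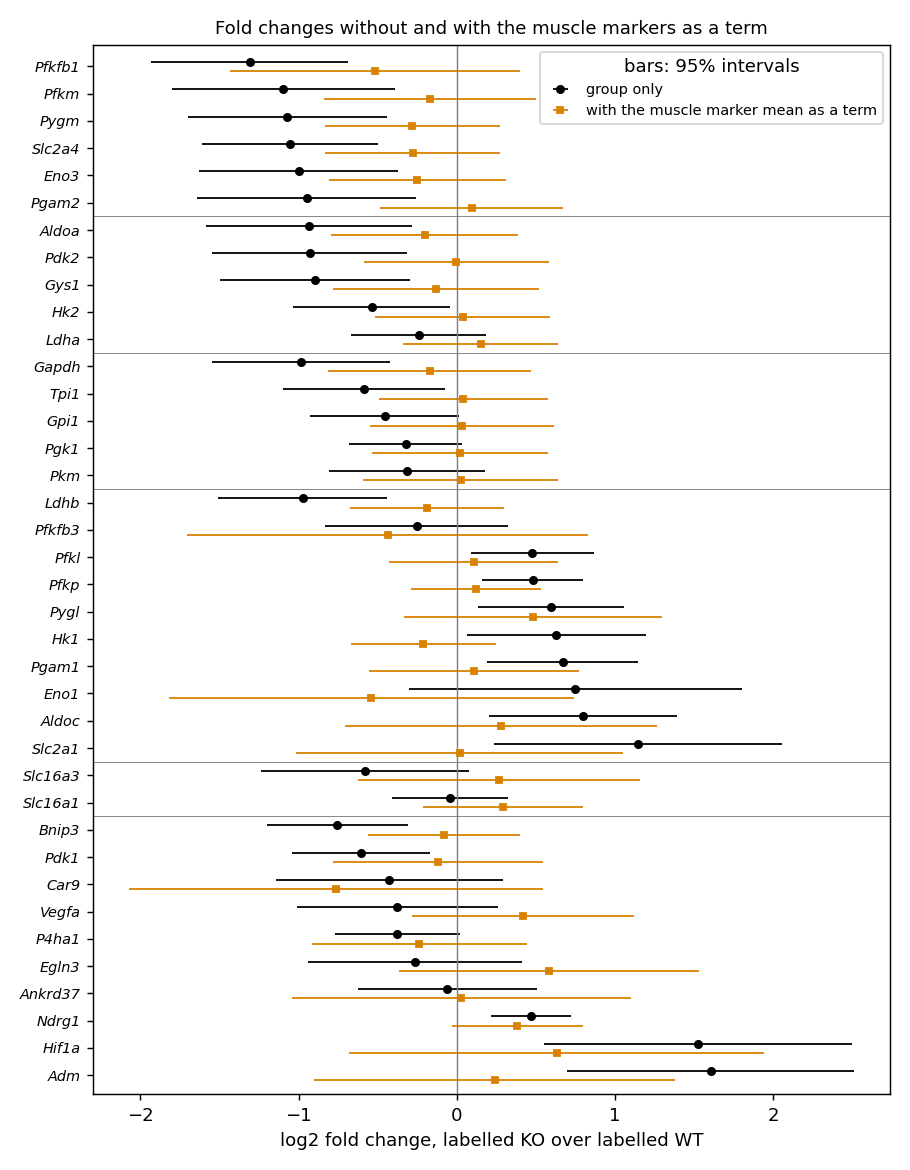
Log2 fold changes (labelled KO over labelled WT) with 95% intervals from the edgeR fit with group only (circles) and with the muscle marker mean as a further term (squares), genes grouped by role from muscle isoforms at the top to hypoxia genes at the bottom. With the marker term every interval includes 0, and the median of the muscle isoforms is -0.26, against -1.06 with group only.

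The hypoxia genes did not move as a block. Of 10, 2 rose and 1 fell, against 4.81% and 7.43% of all genes tested. The median log2 fold change was -0.32, and 7 of 10 had negative values. Adm encodes adrenomedullin, a peptide that widens and stabilises vessels, on chromosome 7 at 110627661 to 110629820. It had 43.0, 18.4 and 14.6 CPM in the tongues labelled KO, against 10.1, 7.82 and 7.0 CPM in those labelled WT. KO replicate 1 stood far above every other library, the groups were apart, and the log2 fold change was 1.60 ± 0.39 (SE, edgeR adjusted p = 0.0428). Without KO replicate 1 it was 0.99 with an edgeR adjusted p of 0.126, and limma-voom gave 1.45 with an adjusted p of 0.0556 over all 6 libraries. Relative to the muscle markers Adm differed by 2.38 with groups apart, and relative to the keratinocyte markers by 0.11 with overlapping groups. In the edgeR fits it was 0.24 ± 0.49 with the muscle marker term and 1.16 ± 0.79 with the keratinocyte marker term (SE).

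Ndrg1, a stress- and differentiation-linked gene of epithelia that hypoxia induces, lies on chromosome 15 at 66929318 to 66969640. It had 155, 138 and 142 CPM in the tongues labelled KO, against 107, 101 and 107 CPM in those labelled WT. Both groups were tight and apart, and the log2 fold change was 0.47 ± 0.11 (SE, edgeR adjusted p = 0.0406). Leaving out any 1 library kept it between 0.42 and 0.50, with edgeR adjusted p-values from 0.0169 to 0.158. Bnip3, which marks mitochondria for removal, lies on chromosome 7 at 138890836 to 138909519. It had 32.9, 33.3 and 41.1 CPM in the tongues labelled KO, against 44.6, 63.4 and 73.2 CPM in those labelled WT. All KO libraries were below all WT libraries, and the log2 fold change was -0.75 ± 0.19 (SE, edgeR adjusted p = 0.0457). Relative to the muscle markers its difference was 0.19 with overlapping groups. Bnip3 is also well expressed in muscle, and the part of muscle content in its fall was not tested. Its counts are uncertain, as 62.4% of its windows also occur in transcripts of another annotated gene.

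Hif1a itself lies on chromosome 12 at 73901375 to 73947530 and is regulated by oxygen mainly at the protein level, so its mRNA is no measure of HIF-1 activity. It had 364, 354 and 375 CPM in the tongues labelled KO, against 217, 107 and 55.8 CPM in those labelled WT. The KO libraries lay close together, the WT libraries spread widely and all lay below them, and the log2 fold change was 1.52 ± 0.42 (SE, edgeR adjusted p = 0.0519). DESeq2 called it with an adjusted p of 0.00143 and limma-voom with 0.0481. DESeq2 called 12.1% and limma-voom 6.14% of the genes that they tested higher.

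The remaining 6 hypoxia genes did not pass the edgeR test. Pdk1, a kinase that blocks pyruvate dehydrogenase in hypoxic cells, had 73.3, 74.0 and 71.6 CPM in the tongues labelled KO, against 81.9, 109.7 and 141 CPM in those labelled WT. Its groups were apart with KO lower, and the log2 fold change was -0.60 ± 0.19 (SE, edgeR adjusted p = 0.0651). Vegfa, the main growth factor for vessels, had 331, 285 and 502 CPM in the tongues labelled KO, against 369, 454 and 629 CPM in those labelled WT. KO replicate 3 lay above 2 of the WT libraries, and the log2 fold change was -0.38 ± 0.28 (SE, edgeR adjusted p = 0.332). Egln3, an oxygen-sensing prolyl hydroxylase that HIF-1 induces, averaged 164 ± 36.9 CPM in KO and 196 ± 81.0 CPM in WT, and P4ha1, a collagen prolyl hydroxylase, averaged 40.9 ± 5.52 CPM in KO and 53.0 ± 10.3 CPM in WT. Car9, the cell-surface carbonic anhydrase widely used as a hypoxia marker in tumours, was low in every library, at 2.0, 2.25 and 1.49 CPM in the tongues labelled KO, against 2.78, 1.67 and 3.32 CPM in those labelled WT. Ankrd37, a further HIF-1 target, averaged 5.41 ± 0.701 CPM in KO and 5.61 ± 1.72 CPM in WT. Egln3, P4ha1, Car9 and Ankrd37 all had overlapping groups, with log2 fold changes of -0.26, -0.38, -0.43 and -0.06.

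**Figure D5:**
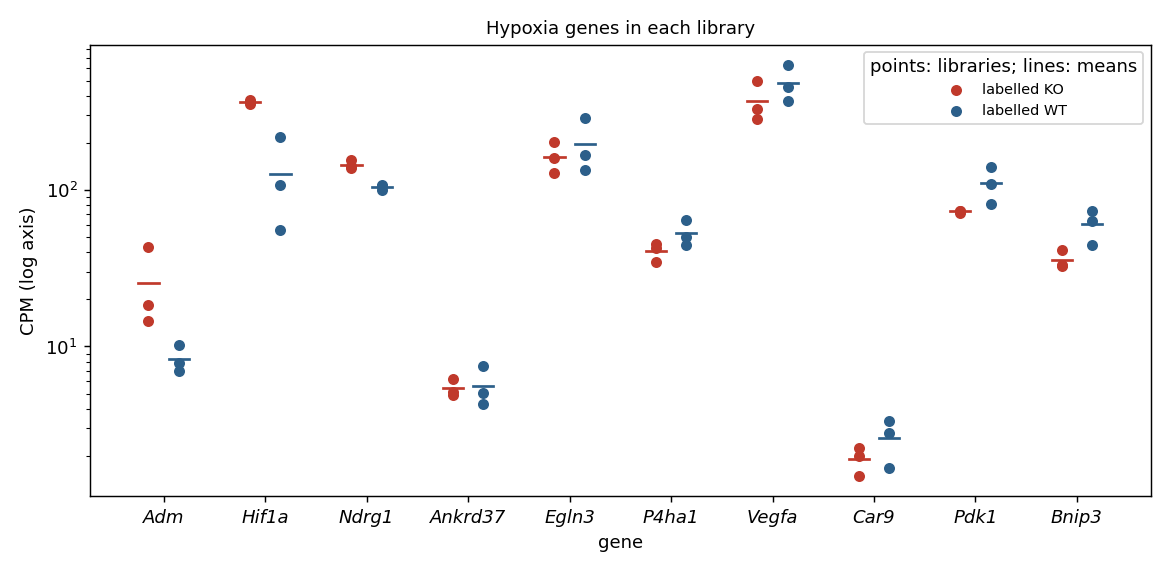
CPM of the 10 hypoxia genes in each library on a log axis (points, labelled KO left of labelled WT, with a line at each group mean). Adm, Hif1a and Ndrg1 lie higher in the 3 KO libraries, Pdk1 and Bnip3 lower, and the other 5 overlap.

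Promoters of 2 genes that were called in opposite directions show the core that HIF-1 is known to bind. The windows have the same bounds as above, and capitals mark ACGTG or GCGTG read on either strand (CACGT or CACGC on the strand printed). Adm is at chr7:110627407-110627706 on the plus strand and Bnip3 at chr7:138909457-138909756 on the minus strand.
Adm: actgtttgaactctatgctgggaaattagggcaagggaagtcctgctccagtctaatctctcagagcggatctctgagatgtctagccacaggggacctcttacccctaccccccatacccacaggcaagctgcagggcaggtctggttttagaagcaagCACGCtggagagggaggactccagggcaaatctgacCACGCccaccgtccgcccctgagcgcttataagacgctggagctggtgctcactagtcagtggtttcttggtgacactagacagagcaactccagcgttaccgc
Bnip3: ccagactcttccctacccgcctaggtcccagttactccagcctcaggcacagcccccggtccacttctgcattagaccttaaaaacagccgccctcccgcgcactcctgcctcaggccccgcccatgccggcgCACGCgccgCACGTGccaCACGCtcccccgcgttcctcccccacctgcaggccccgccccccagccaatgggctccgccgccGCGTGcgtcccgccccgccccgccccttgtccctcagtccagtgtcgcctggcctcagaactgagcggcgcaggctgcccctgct
Adm holds 2 matches and Bnip3 5, some of which overlap. A match was found in 9 of the 9 hypoxia genes with an entry and in 32 of the 36 members with one (88.9%), against 12628 of 27025 RefSeq genes (46.7%). Each core contains a CG pair, and the median window of the hypoxia genes held 24 CG pairs against 8 for all genes. A match describes the letters only.

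The 2 lactate carriers gave no call. Slc16a1, the widely expressed carrier MCT1, had 121, 108 and 158 CPM in the tongues labelled KO, against 124, 138 and 136 CPM in those labelled WT. The groups overlapped, with a log2 fold change of -0.04 ± 0.16 (SE, edgeR adjusted p = 0.855). Slc16a3, the exporter MCT4 of glycolytic muscle and hypoxic cells, had 26.3, 17.3 and 33.1 CPM in the tongues labelled KO, against 25.6, 41.7 and 47.5 CPM in those labelled WT, again with overlap, and a log2 fold change of -0.58 ± 0.29 (SE, edgeR adjusted p = 0.170).

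Other genes of glycogen and pyruvate handling fell more often than they rose in the tongues labelled KO. Of 55 listed and found, 49 were tested, and 2 rose while 18 fell, 4.08% and 36.7% against 4.81% and 7.43% of all genes, with a median log2 fold change of -0.69. With the muscle marker mean as a term none was called and the median was -0.14. The falls with the smallest adjusted p-values were those of Phkb, Pgm5, Phka1 and Gbe1. Phkb, the beta subunit of phosphorylase kinase, averaged 77.5 ± 4.44 CPM in KO and 154 ± 31.5 CPM in WT (-0.99 ± 0.17 as log2 fold change and SE, adjusted p = 0.0312 by edgeR), and Phka1, the muscle alpha subunit, 175 ± 24.8 CPM in KO and 354 ± 52.4 CPM in WT (-1.02 ± 0.18 as log2 fold change and SE, adjusted p = 0.0315 by edgeR). Gbe1, the glycogen branching enzyme, averaged 95.8 ± 15.4 CPM in KO and 201 ± 40.8 CPM in WT (-1.07 ± 0.19 as log2 fold change and SE, adjusted p = 0.0325 by edgeR). Pgm5, a phosphoglucomutase relative found at muscle attachment sites, averaged 113 ± 10.5 CPM in KO and 260.3 ± 69.0 CPM in WT (-1.20 ± 0.21 as log2 fold change and SE, adjusted p = 0.0315 by edgeR). Among those that rose, Pgm1, a phosphoglucomutase, averaged 22.4 ± 1.30 CPM in KO and 14.8 ± 2.10 CPM in WT (0.59 ± 0.15 as log2 fold change and SE, adjusted p = 0.0426 by edgeR).

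Of 50 other hypoxia genes, all tested, 3 rose and 6 fell, 6.00% and 12.0% against 4.81% and 7.43% of all genes. Their median log2 fold change was -0.11. Bnip3l, a relative of Bnip3, averaged 51.2 ± 4.90 CPM in KO and 37.1 ± 0.447 CPM in WT (0.46 ± 0.11 as log2 fold change and SE, adjusted p = 0.0436 by edgeR). Fam162a, a mitochondrial HIF-1 target, averaged 288 ± 39.2 CPM in KO and 191 ± 8.54 CPM in WT (0.59 ± 0.15 as log2 fold change and SE, adjusted p = 0.0446 by edgeR), and Ero1l, an oxidase of the endoplasmic reticulum, 30.9 ± 4.95 CPM in KO and 18.2 ± 3.91 CPM in WT (0.76 ± 0.20 as log2 fold change and SE, adjusted p = 0.0463 by edgeR). Those with the smallest adjusted p-values among the falls were Gbe1, which is on both lists, Narf, Plod1, a collagen lysyl hydroxylase, and Egln1, the main oxygen-sensing prolyl hydroxylase. Egln1 averaged 233 ± 26.7 CPM in KO and 427 ± 102 CPM in WT (-0.87 ± 0.21 as log2 fold change and SE, adjusted p = 0.0417 by edgeR), Narf 59.2 ± 2.81 CPM in KO and 104 ± 21.7 CPM in WT (-0.81 ± 0.16 as log2 fold change and SE, adjusted p = 0.0337 by edgeR) and Plod1 31.6 ± 3.79 CPM in KO and 54.5 ± 9.41 CPM in WT (-0.79 ± 0.16 as log2 fold change and SE, adjusted p = 0.0338 by edgeR).

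The label could be compared within 1 sex only through KO replicate 1. Between KO replicate 1 and the 3 WT libraries, all with Xist at 2.5 CPM or less, no gene was called, with 1116 higher and 1601 lower at an unadjusted p of 0.05, among them 4 and 9 of the 38. The fold changes kept their sign for all 38, with a median of -1.30 over the muscle isoforms. Values were -1.32 ± 0.52 for Pygm, 0.53 ± 0.19 for Ndrg1 and 1.49 ± 0.65 for Hif1a. These libraries are also part of the main fit, and KO replicate 1 had the lowest muscle marker mean of all. The agreement in sign was therefore partly built in. The WT libraries alone set the spread in this comparison.

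In the authors' deposited table of all 6 libraries, 8 of the 38 were higher and 15 lower in KO at an adjusted p of 0.05. In the authors' deposited table of KO replicates 1 and 2 with WT replicates 1 and 3 the counts were 1 and 11, and in that with WT replicates 2 and 3 they were 9 and 21. These tables share libraries, and the deposited log2 fold changes run WT over KO. The share of all genes called in each was not counted, so the counts cannot be read as particular to the 38.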

How the data were processed

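Total RNA of tongues with tumours was made into 6 TruSeq RNA libraries, 3 labelled KO and 3 labelled WT, per the labels' protocols. The authors deposited 3 tables of 24067 genes. One holds raw counts of all 6 libraries, and the other 2 hold the same counts of 4 libraries each, so only the first was fitted. Per the file headers, further columns give the authors' mean of size-factor-normalised counts (a signal), log2 fold change with its log2 standard error, test statistic (a score), p-value and adjusted p-value. HTSeq and DESeq2 are named as tools, and mm10 and hg19 as builds, per the submitters' processing notes. The aligner, the gene annotation and any strand setting are not given there, so antisense and overlapping genes cannot be told apart.

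The counts were fitted with edgeR 4.0.16 (R 4.3.3): filterByExpr with a minimum count of 10 and a total of 15, TMM scaling, a robust quasi-likelihood fit with group only, and Benjamini-Hochberg adjustment over 15903 genes at 0.05. The common biological coefficient of variation was 20.7%. Levels are CPM on TMM-scaled library sizes, and 1 CPM is 25.6 to 53.0 counts. Isoform ratios were compared by 2-sided exact permutation. Exon lengths and positions are from GENCODE on GRCm38, promoters from RefSeq on GRCm38.p6, with an entry for 36 of the 38. The script was tested on simulated counts. Alternatives were DESeq2 1.42.0, limma-voom (limma 3.58.1), other scalings, no filter, each library left out, a replicate block, and marker means or sex as a term. A comparison of KO replicate 1 with WT and levels relative to muscle or keratinocyte markers were added after seeing the data. All 38 genes could be named, and of each pathway list up to 4 genes per direction with the smallest adjusted p. The values of 1 such gene are not reported here. The genes and lists were chosen with earlier results of these data known.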

Additional observations from a re-analysis of the deposited data

How the results depend on the processing

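Of the 38 genes, 2 were called higher and 6 lower, against 765 and 1181 of all genes. The same counts came from DESeq2 size factors in edgeR (762 and 1180 of all genes). Upper quartile scaling gave 2 and 7 (743 and 1307 of all genes), and no filter gave 2 and 9 (841 and 1323). DESeq2 gave 8 and 15 (1881 and 2468 of all genes), limma-voom 2 and 10 (976 and 1271). With the muscle marker mean, the keratinocyte marker mean or sex as a term, and in the 4 libraries without Xist, the counts were 0 and 0. With sex as a term no gene of the whole table was called either. Leaving out 1 library gave 0 to 11 higher and 0 to 17 lower, against 0 to 2906 and 0 to 2938 of all genes. The cause was not tested. Replicate numbers did not pair the samples (correlations of 0.12, -0.16 and 0.19 between same-numbered libraries). A replicate block gave 7 and 15, against 1705 and 2112 of all genes. KO replicates 1 and 2 correlated best with another number.

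With the muscle marker term the sign reversed for Pgam2 (0.094), Hk2 (0.038), Ldha (0.15), Hk1 (-0.21), Eno1 (-0.54), Gpi1 (0.033), Tpi1 (0.042), Pgk1 (0.020), Pkm (0.025), Slc16a1 (0.29), Slc16a3 (0.27), Egln3 (0.58), Ankrd37 (0.027) and Vegfa (0.42). With the keratinocyte term it reversed for Ldha (0.075), Hk1 (-0.0017), Eno1 (-0.62), Slc2a1 (-0.084), Pfkfb3 (0.062), Gpi1 (0.082), Pkm (0.13), Slc16a1 (0.098), Slc16a3 (0.16), Pdk1 (0.024), Egln3 (0.77) and Vegfa (0.35). Relative to the muscle markers 20 of the 38 changed from negative to positive, among them Pgam2 (0.0025) and the called gene Bnip3 (0.19). Relative to the keratinocyte markers 9 changed from positive to negative, among them the called gene Ndrg1 (-0.88). Each marker mean shifts all genes by the same amount, upward for muscle and downward for keratinocyte markers, so these changes of sign follow from the shift. No called gene reversed in the alternative fits. With 1 library left out, Slc16a1 ranged from -0.22 (without KO replicate 3) to 0.068 (without KO replicate 2), reversing also without KO replicate 1 (3.66e-04). Egln3 ranged from -0.46 to 0.12 (without WT replicate 3), and Ankrd37 from -0.22 to 0.22 (without WT replicate 2), reversing also without KO replicate 3 (0.0040). All 10 isoform ratios kept their direction, with 5 added to the counts, in the replicate block and with each library left out. Slc2a4 over Slc2a1, for example, ranged from -2.92 to -1.64. Depth limits Eno1, Car9, Ankrd37, Aldoc and Pgam1 most, which lay under 10 CPM in every library.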

Other observations

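Markers of other cell types moved with the label beside the genes described. Of 5 endothelial markers 3 were called lower in the tongues labelled KO by edgeR's quasi-likelihood test, and their summed level was 273 ± 25.2 CPM in KO and 438 ± 71.4 CPM in WT (SD, n = 3 each). Of 6 fibroblast markers 2 were called lower, with sums of 1080.4 ± 172 CPM in KO and 1556 ± 138 CPM in WT. Of 5 myeloid markers 2 were called higher, with sums of 75.2 ± 6.97 CPM in KO and 65.8 ± 3.47 CPM in WT. None of the 4 adipocyte markers tested was called. Over all genes tested, 4.81% were called higher and 7.43% lower. Of 4 erythroid markers, Hbb-bt and Hba-a1 are listed at 0 in every library, and only Alas2, a heme synthesis enzyme of red cell precursors, was tested. It was called lower, at 3.84 ± 1.60 CPM in KO and 12.9 ± 5.56 CPM in WT (log2 fold change -1.75 ± 0.38, adjusted p = 0.0360 by edgeR). The part of these cell types in the levels of the 38 genes was not tested.

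Pdk4, a kinase that blocks pyruvate dehydrogenase in fasting muscle, was singled out after its values were seen. It had 103, 47.7 and 149 CPM in the tongues labelled KO, against 181, 340 and 1364 CPM in those labelled WT. WT replicate 3 was far above all others, and the log2 fold change of -2.65 ± 0.76 had an edgeR adjusted p of 0.0553.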
